A study of Mus musculus with 8 samples.

Results

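The messenger RNA of 44 antioxidant, glutathione and epoxide detoxifying genes was described in endothelial cells sorted from the brains of mouse pups. The genes were chosen by name from known pathways, at a time when earlier results of these data were known. The pathways were the NRF2 axis, the glutathione and thioredoxin systems, superoxide dismutases and epoxide hydrolases. All 44 genes were found among the 25700 gene identifiers of the count tables. The KO group held 4 pups whose endothelial cells lack the glucose transporter GLUT1 (genotype GLUT1EC-/-), and the WT group held 4 wild-type littermates. All pups were C57BL/6 mice at postnatal day 6, and the endothelial cells were sorted by flow cytometry into lysis buffer and were never cultured. The sources used here do not give the promoter or Cre line behind the deletion. The comparison asked how endothelial transcripts differ when GLUT1, the main carrier of glucose across the blood-brain barrier, is lost from these cells.

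In resting cells the sensor protein KEAP1 marks the transcription factor NRF2 for degradation. Oxidants and electrophiles modify KEAP1, and NRF2 then builds up, pairs with small MAF proteins and binds antioxidant response elements near genes for glutathione synthesis, thioredoxin recycling, quinone reduction and haem breakdown. Microsomal epoxide hydrolase, encoded by Ephx1, sits in the endoplasmic reticulum and turns reactive epoxides into diols. It is often counted among the genes that NRF2 can induce. In the brain such enzymes in the vessel wall form part of a metabolic barrier beside the physical one. Ephx1 was already known from an earlier account of these data to differ between KO and WT. Its values are set here beside those of 8 other NRF2 targets, and the tests of Ephx1 and of its ratios are not independent of that choice.

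Counts totalled 20.9 to 40.8 M (M for mega) in the KO libraries and 25.9 to 114 M in the WT libraries. Each library came from 1 pup, so the p-values below measure the spread between these pups. Slc2a1, the GLUT1 gene, stood at 1507 ± 89.6 CPM in KO, beside 3044 ± 664 CPM in WT (SD, n = 4 each), where CPM are counts scaled by TMM to a library total of 1e6. The KO pups lay at 1386 to 1602 CPM and the WT pups at 2238 to 3726 CPM, so the transcript was lower but not absent in KO, and the part of the gene that is deleted is not given. All 8 endothelial markers examined, among them Pecam1, Cdh5 and Cldn5, were detected, and they summed to 13678 to 15519 CPM in KO and 14344 to 15786 CPM in WT. Singly, their log2 fold changes (KO over WT) ran from -0.30 to 0.26, with 4 above 0 and 4 below. For 2 of the 8, every KO pup lay below every WT pup, which is 25%, beside 3.43% of all tested genes. KO pup 1 stood apart from the other libraries, with 13624 genes detected against 15756 to 17082 elsewhere. By the sample titles the 4 KO pups and WT pup 5 shared a cage, while the deposited file names place WT pup 3 there instead. Cage and genotype are therefore nearly confounded. The members together took 0.336 to 0.350% of the counts in KO and 0.295 to 0.329% in WT.

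Of the 44 genes, Ephx1 alone passed the edgeR test across all genes. It was 5.48-fold higher in KO, with every KO pup above every WT pup, while the genes of the NRF2 axis, the glutathione and thioredoxin systems and the superoxide dismutases did not pass there. A call here means an adjusted p under 0.05 in the edgeR quasi-likelihood test over the 14154 genes tested. All 44 members were tested, 1 was called higher and 0 were called lower, against a background of 0.276% of tested genes called higher, 0.113% called lower and 0.389% called in either direction. At an unadjusted p under 0.05, edgeR counted 9 members as higher and 1 as lower in KO (20.5% and 2.27% of members), where the background was 5.52% and 5.61%. With DESeq2 the adjusted counts were 4 higher (Ephx1, Nfe2l2, Srxn1 and Gclc) and 1 lower (Cat), beside a background of 1.19% and 1.45%. With limma-voom they were 1 and 0, beside 0.353% and 0.155%. The median log2 fold change was 0.10 over the members and 0.00 over all genes tested, and 31 members had a value above 0 and 13 a value below it.

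**Figure D1:**
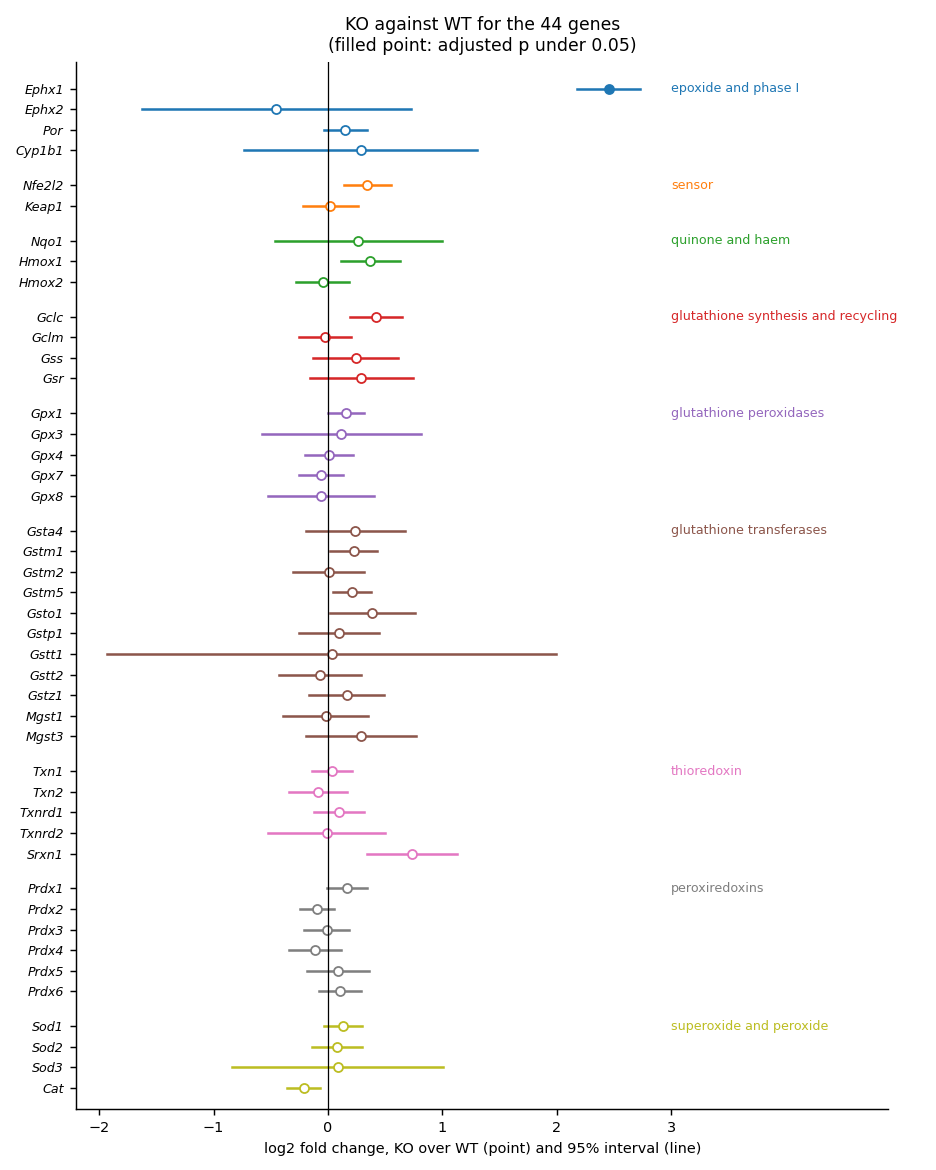
Log2 fold change (KO over WT, x axis) of the 44 genes with 95% intervals from edgeR, grouped by role down the page. Filled points mark an adjusted p under 0.05, which Ephx1 alone reached at 2.45, while the other 43 genes lay between -0.45 and 0.74.

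The promoter windows of Ephx1 and of 3 NRF2 targets are shown first, as a description of sequence. These 3 targets have 1 window each, with few exon bases in it. Prdx1, with 55 exon bases in its window, and Txnrd1, with more than 1 window, are not shown. The part of these letters in the contrast between Ephx1 and the targets was not tested. The sequences come from RefSeq (GRCm38.p6), run 5′ to 3′ on the strand of the gene and cover the 250 bases before the RefSeq start. Capitals mark the core of the antioxidant response element, searched on both strands as TGACNNNGC or TGAGNNNGC. The windows lie at chr1:181017570-181017819 (minus strand) for Ephx1, chr8:107403206-107403455 (minus strand) for Nqo1, chr2:152105274-152105523 (plus strand) for Srxn1 and chr3:122245307-122245556 (plus strand) for Gclm.
Ephx1: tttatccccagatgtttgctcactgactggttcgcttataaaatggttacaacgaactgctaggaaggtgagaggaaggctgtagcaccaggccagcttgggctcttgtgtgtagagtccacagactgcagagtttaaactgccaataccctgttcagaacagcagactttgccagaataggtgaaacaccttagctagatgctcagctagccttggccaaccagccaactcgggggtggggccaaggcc
Nqo1: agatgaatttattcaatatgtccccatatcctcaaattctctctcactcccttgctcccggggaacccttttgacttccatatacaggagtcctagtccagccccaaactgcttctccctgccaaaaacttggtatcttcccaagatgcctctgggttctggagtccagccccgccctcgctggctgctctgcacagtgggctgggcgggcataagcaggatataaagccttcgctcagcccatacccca
Srxn1: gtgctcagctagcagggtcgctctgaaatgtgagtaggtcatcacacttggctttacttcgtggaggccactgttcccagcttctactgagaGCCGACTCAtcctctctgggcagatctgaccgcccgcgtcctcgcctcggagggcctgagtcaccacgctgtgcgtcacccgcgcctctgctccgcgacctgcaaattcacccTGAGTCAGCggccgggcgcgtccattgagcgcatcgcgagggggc
Gclm: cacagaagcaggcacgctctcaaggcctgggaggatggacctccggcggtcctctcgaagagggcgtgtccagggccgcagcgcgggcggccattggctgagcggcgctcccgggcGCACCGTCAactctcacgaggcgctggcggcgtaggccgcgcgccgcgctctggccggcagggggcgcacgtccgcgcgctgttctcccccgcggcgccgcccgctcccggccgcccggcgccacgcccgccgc
The Srxn1 window held 2 matches to the core, at 158 to 150 and at 45 to 37 bases before the start, and the Gclm window held 1, at 134 to 126 bases. The Ephx1 and Nqo1 windows held 0, which says only that these letters are not in these 250 bases. The Ephx1 window also held 0 matches to the p53 half-site consensus, which 7.13% of all windows held. The RefSeq start of Ephx1 lies 3335 bases downstream of the outermost GENCODE start, so other starts of the gene lie outside the window. Windows were found for 36 of the 44 genes, and 12 of these genes had a match in at least 1 window (Gclm, Gstm5, Gstp1, Gstt1, Gstz1, Mgst1, Nfe2l2, Prdx1, Sod1, Srxn1, Txn2 and Txnrd1). By window, 13 of 46 held a match, beside 23% of all 32851 windows in the table. A match is a description of the letters and not evidence of binding.

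Ephx1 (ENSMUSG00000038776, GRCm38 chromosome 1, 180976210 to 181020904, minus strand, protein coding, 11 exon blocks) measured 111, 126, 125 and 123 CPM in KO pups 1 to 4, against 24.8, 16.6, 23.5 and 23.8 CPM in WT pups 5, 1, 2 and 3. Every KO pup lay above every WT pup, and the lowest KO value was more than 4 times the highest WT value. The means were 121 ± 6.92 CPM in KO, beside 22.2 ± 3.77 CPM in WT (SD, n = 4 each). In edgeR the log2 fold change was 2.45 (SE 0.13, 95% interval 2.18 to 2.73, adjusted p = 4.34e-06), a ratio of 5.48 with an interval of 4.52 to 6.63. An exact two-sided permutation test over the 70 assignments of libraries gave p = 0.0286, the smallest p that 4 against 4 allows. The lowest count behind these values was 630, in WT pup 5.

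The Ephx1 log2 fold change was 2.29 to 2.52 over the 19 alternative fits, and the call was kept in the 18 fits with more than 1 WT pup. In the 5 pups that the titles put in the KO cage, WT pup 5 is the single WT pup, so the spread comes from the KO pups alone and the value of 2.29 is given without a test. With a cage term it was 2.29 by the titles (edgeR adjusted p = 0.00451) and 2.35 by the file names (edgeR adjusted p = 0.00492). In both of these cage fits the genotype difference also rests on 1 WT pup, the one placed in the KO cage. In sorted populations, more cells of a type and more RNA per cell cannot be told apart. The 6 astrocyte markers, all detected, summed to 307 to 408 CPM in KO and 315 to 377 CPM in WT. Gja1, the most abundant of them, carried most of this sum (234 to 303 CPM in KO, against 269.8 to 334 CPM in WT) and had a log2 fold change of -0.23. The other 5 lay above 0, up to 1.43 for Gfap, with a list median of 0.99. At an unadjusted p under 0.05, edgeR counted 4 of the 6 as higher and 1 as lower, and 0 were called. The 4 choroid plexus and ependymal markers, all detected, summed to 12.6 to 298 CPM in KO and 359.7 to 1847 CPM in WT, and mitochondrial transcripts, taken as a sign of RNA quality (6 of 8 detected, with mt-Co2 and mt-Co3 at 0), to 18916 to 22890 CPM in KO and 15302 to 17808 CPM in WT. For these last 2 lists the groups did not overlap. The 8 microglial and macrophage markers, whose sums are given below with Hmox1, all had log2 fold changes above 0. Their median was 0.37 and 0 were called, where 50.3% of all tested genes had a value above 0. The part of these 4 lists in the Ephx1 result was not tested.

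Levels of different genes were compared per kilobase of exon, scaled to 1e6 per library. On this scale Ephx1 averaged 237 ± 13.3 in KO and 43.6 ± 7.29 in WT (SD, n = 4 each). It thus ranked 11 among the 44 members in KO and 28 in WT, and it stood at percentile 95.2 of all tested genes in KO and 69.5 in WT. In KO its level was close to those of Sod1, at 255 ± 14.7, and Gpx4, at 262 ± 28.5, the cytosolic superoxide dismutase and the glutathione peroxidase of membrane lipids. In WT it lay near Gclc, at 44.01 ± 3.82, and Keap1, at 42.5 ± 4.76. By this exon length Gpx1, Gstm1, Prdx1, Cat and Txn1 held the highest 5 places in both groups, in differing order. With the length of the longest transcript in place of all exons, the ranks of Ephx1 were 11 in KO and 31 in WT, and its level of 203 in KO lay beside 195 for Sod1 but below 347 for Gpx4. Gpx4 then replaced Txn1 among the highest 5 in both groups.

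**Figure D2:**
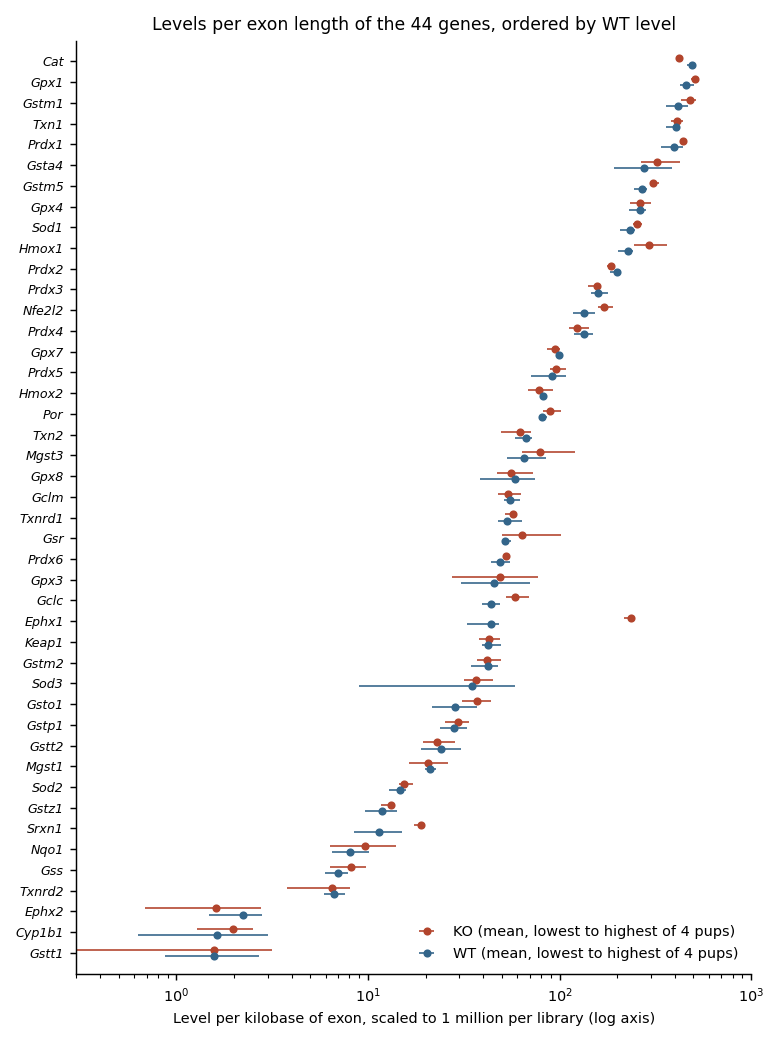
Level per kilobase of exon (scaled to 1e6 per library, log axis) of each of the 44 genes, as the mean of 4 pups with a line for the lowest to highest pup, ordered by the WT level with KO and WT marked by colour. Ephx1 sits at 237 in KO and 43.6 in WT, while for the other genes the KO and WT points lie close together, and the KO line of Gstt1 runs to the left edge because KO pup 1 had a count of 0.

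The other genes of epoxide and phase I metabolism did not pass. Ephx2, the soluble epoxide hydrolase that acts on fatty acid epoxides, was near the detection limit at 0.449 to 1.79 CPM in KO and 0.954 to 1.81 CPM in WT, and its log2 fold change of -0.45 had a 95% interval of -1.63 to 0.73. Por, the reductase that feeds electrons to microsomal cytochromes P450, measured 86.5 to 108 CPM in KO and 81.1 to 89.3 CPM in WT. Por had a log2 fold change of 0.15 (edgeR adjusted p = 0.558). Cyp1b1, a cytochrome P450 of vessel walls that oxidises hydrocarbons and steroids, measured 1.96 to 3.81 CPM in KO and 0.954 to 4.65 CPM in WT. For Cyp1b1 too the 95% interval was wide, from -0.73 to 1.30.

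Nfe2l2, which encodes NRF2 (ENSMUSG00000015839, GRCm38 chromosome 2, 75675513 to 75704641, minus strand), measured 159, 163, 189 and 167 CPM in KO pups 1 to 4, against 131, 151, 136 and 115 CPM in WT pups 5, 1, 2 and 3. All KO values lay above all WT values, with means of 169 ± 13.7 CPM in KO, beside 133 ± 14.6 CPM in WT (SD, n = 4 each). The log2 fold change of 0.34 (SE 0.09, 95% interval 0.14 to 0.55) did not pass in edgeR (adjusted p = 0.18) and passed in DESeq2 (adjusted p = 0.0361). Over the alternatives the adjusted p ran between 0.0361 and 0.712, and in the 5 pups of the KO cage (titles) the log2 fold change was 0.37. With a cage term by the file names it was 0.55 (edgeR adjusted p = 0.361). Nfe2l2 was highest in KO pup 3, where microglial and macrophage markers were also highest, and its log2 fold change without that pup was 0.28. The part of these cells in the Nfe2l2 values was not tested. NRF2 is regulated mainly through the stability of its protein, which these data do not measure. Keap1, its inhibitor, measured 50.6, 59.9, 53.6 and 46.8 CPM in KO, against 61.7, 48.0, 48.9 and 49.4 CPM in WT, and the groups overlapped. The log2 fold change of Keap1 was 0.02, with a 95% interval of -0.22 to 0.26, and it was -0.23 with the cage term from the titles.

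The groups did not overlap for 7 of the 44 genes, 6 with every KO pup above every WT pup (Ephx1, Nfe2l2, Hmox1, Srxn1, Gclc and Gstm5) and 1 with every KO pup below (Cat). Those are 13.6% and 2.27% of the members, where the background over all tested genes was 3.77% and 3.43%. In either direction it was 15.9% of the members, beside 7.19% of all tested genes.

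**Figure D3:**
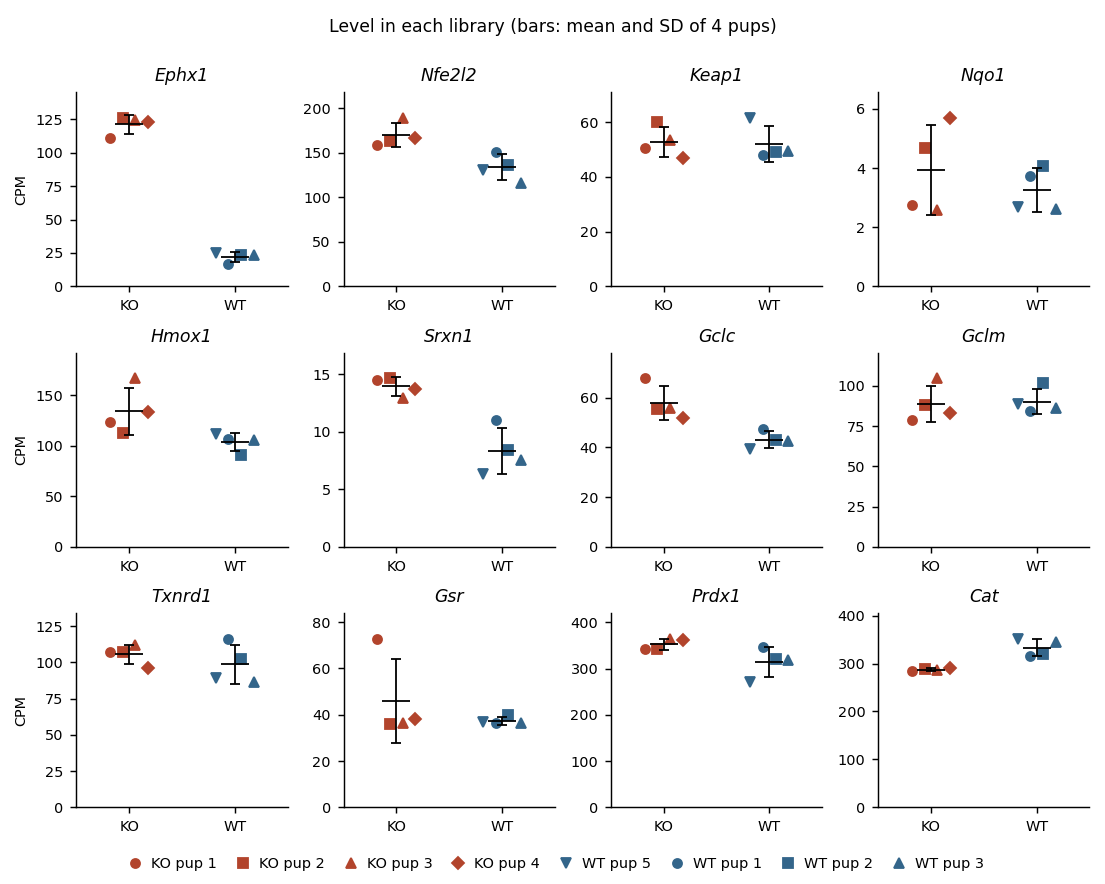
CPM (linear axis from 0) of 12 genes in each KO pup (left) and WT pup (right) of each panel, with the group mean and SD as bars. Ephx1 separates at 111 to 126 CPM in KO against 16.6 to 24.8 CPM in WT, whereas Keap1, Nqo1, Gclm, Txnrd1 and Prdx1 overlap, and Gsr is high in KO pup 1.

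Among the classic NRF2 targets, neither the quinone reductase nor the haem oxygenases passed. Nqo1, the quinone reductase used most widely as an NRF2 readout, measured 2.73, 4.68, 2.57 and 5.71 CPM in KO, against 2.68, 3.72, 4.07 and 2.602 CPM in WT. The groups overlapped fully, and the log2 fold change of 0.26 had a 95% interval of -0.47 to 0.996 (edgeR adjusted p = 0.834) at counts as low as 57. Hmox1, which breaks down haem, measured 123, 113, 167 and 133 CPM in KO, against 112, 107, 91.3 and 105 CPM in WT. Its groups did not overlap, but the lowest KO value, 113 CPM, and the highest WT value, 112 CPM, nearly met. Its log2 fold change was 0.37 (SE 0.12, 95% interval 0.11 to 0.63, edgeR adjusted p = 0.247), and DESeq2 gave an adjusted p of 0.0945. Hmox1 was highest in KO pup 3, the library in which microglial and macrophage markers were also highest. Those 8 markers, all detected, summed to 894 to 2460.0 CPM in KO and 834 to 1336 CPM in WT. Each of the 8 had a log2 fold change above 0, with a median of 0.37, and their part in the Hmox1 values was not tested. Hmox2, the constitutive haem oxygenase, had a log2 fold change of -0.04. Cdip1, on the opposite strand, covers 40.2% of its exon bases, and the strand setting of the counting is not given in the sources used here.

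Glutathione synthesis starts with glutamate-cysteine ligase, the rate-limiting enzyme, whose catalytic and modifier subunits had log2 fold changes of 0.42 and -0.03. Gclc, the catalytic subunit (ENSMUSG00000032350, GRCm38 chromosome 9, 77754535 to 77794485, plus strand), measured 67.9, 55.6, 55.9 and 51.9 CPM in KO, against 39.2, 47.5, 43.1 and 42.7 CPM in WT. Every KO pup exceeded every WT pup, with means of 57.8 ± 6.96 CPM in KO, beside 43.1 ± 3.42 CPM in WT (SD, n = 4 each). Its log2 fold change of 0.42 (SE 0.10, 95% interval 0.19 to 0.65) did not pass in edgeR (adjusted p = 0.134) and passed in DESeq2 (adjusted p = 0.0216). The alternatives gave adjusted p values between 0.0216 and 0.87. Gclm, the modifier subunit, measured 78.7, 87.9, 105 and 83.3 CPM in KO, against 88.9, 84.2, 102 and 86.0 CPM in WT. Its values overlapped throughout, and its log2 fold change was -0.03 with a 95% interval of -0.25 to 0.20. The difference between the 2 subunits was not itself tested. Gss, which adds glycine in the last step, had a log2 fold change of 0.24 (edgeR adjusted p = 0.656).

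Gsr, the reductase that regenerates glutathione from its oxidised form, had a difference that rested on 1 library. It measured 72.9, 36.0, 36.4 and 38.1 CPM in KO, against 36.8, 36.5, 39.8 and 36.3 CPM in WT. KO pup 1 stood far above every other pup, while the remaining 7 lay between 36.0 and 39.8 CPM. The log2 fold change was 0.29 (SE 0.21, edgeR adjusted p = 0.66) with all libraries and -0.02 without KO pup 1.

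The thioredoxin system contained the member with the highest log2 fold change after Ephx1. Srxn1, the sulfiredoxin that repairs overoxidised peroxiredoxins (ENSMUSG00000032802, GRCm38 chromosome 2, 152105516 to 152111376, plus strand), measured 14.5, 14.7, 12.9 and 13.7 CPM in KO, against 6.34, 11.02, 8.44 and 7.56 CPM in WT. The KO values were tightly grouped and all lay above the WT values, with means of 13.9 ± 0.808 CPM in KO, beside 8.34 ± 1.98 CPM in WT (SD, n = 4 each). The log2 fold change of 0.74 (SE 0.18, 95% interval 0.34 to 1.13) did not pass in edgeR (adjusted p = 0.134) and passed in DESeq2 (adjusted p = 0.0168). Adjusted p values ran between 0.0168 and 0.768 over the alternatives. The log2 fold change was 1.14 in the 5 pups of the KO cage by the titles, where WT pup 5, the lowest for Srxn1, is the single WT pup. With a cage term by the file names it was 0.88. Txnrd1, the cytosolic thioredoxin reductase, measured 107, 107, 112 and 96.1 CPM in KO, against 89.2, 116, 102 and 86.8 CPM in WT, and its groups overlapped. Its log2 fold change was 0.10 with a 95% interval of -0.13 to 0.32. The thioredoxins Txn1 (cytosolic) and Txn2 (mitochondrial) had log2 fold changes of 0.04 and -0.09, and Txnrd2, the mitochondrial reductase, had -0.01.

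The 6 peroxiredoxins, which reduce hydrogen peroxide with electrons from thioredoxin or glutathione, had log2 fold changes of -0.11 (Prdx4) to 0.17 (Prdx1), with 0 of 6 called in either direction. Prdx1, the abundant cytosolic form and an NRF2 target, measured 343, 342, 365 and 361 CPM in KO, against 272, 348, 320.4 and 318 CPM in WT. WT pup 1 reached the KO range and WT pup 5 lay lowest. The means were 353 ± 11.9 CPM in KO, beside 314 ± 31.4 CPM in WT (SD, n = 4 each), and the log2 fold change of 0.17 did not pass (edgeR adjusted p = 0.492). Log2 fold changes were -0.09 for Prdx2, -0.01 for the mitochondrial Prdx3, 0.09 for Prdx5 and 0.11 for Prdx6. For Prdx5, 19.1% of the exon bases overlap Trmt112 on the opposite strand, and smaller opposite-strand overlaps, of up to 9.14%, touch Gss, Gstz1, Txnrd2 and Prdx2.

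The contrast between Ephx1 and the NRF2 targets was tested within each library as the ratio of their CPM. These ratios are not corrected for transcript length, so they are compared between pups and not between targets. The ratio of Ephx1 to Nqo1 was 39.97, 26.7, 47.6 and 21.4 in KO pups 1 to 4, against 9.12, 4.41, 5.72 and 8.99 in WT pups 5, 1, 2 and 3. The ratio of Ephx1 to Srxn1 was 7.65, 8.59, 9.64 and 8.95 in KO, against 3.89, 1.502, 2.78 and 3.13 in WT. Both ratios were higher in every KO pup than in any WT pup. For Hmox1 the ratio was 0.902, 1.12, 0.747 and 0.922 in KO, against 0.222, 0.155, 0.258 and 0.226 in WT. In the same order, the ratio to Gsr was 1.52, 3.51, 3.43 and 3.23 in KO, lowest in KO pup 1, against 0.675, 0.455, 0.591 and 0.656 in WT.

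On the log2 scale the KO minus WT difference of the ratio was 2.26 for Nqo1, 2.11 for Hmox1, 1.70 for Srxn1, 2.05 for Gclc, 2.50 for Gclm, 2.36 for Txnrd1, 2.24 for Gsr and 2.29 for Prdx1. The ratio was thus 3.25 times higher in KO for Srxn1, the smallest of the 8 differences, and 5.64 times higher for Gclm, the highest. For each of the 8 pairs the groups did not overlap, and the exact two-sided permutation p was 0.0286, also after Benjamini-Hochberg adjustment over the 8 pairs, which is the smallest value these 8 libraries allow. In these libraries Ephx1 differed between KO and WT by more than each of these targets did. The 8 tests share the Ephx1 values and are not independent, and Ephx1 was chosen with its difference in these data known. The log2 fold changes of the 8 targets themselves had a median of 0.28 and ran between -0.03 and 0.74, with 7 above 0, 1 below it and 0 called. For 3 of them (Hmox1, Srxn1 and Gclc) every KO pup lay above every WT pup. That is 37.5% of the 8, beside 3.77% of all tested genes.

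**Figure D4:**
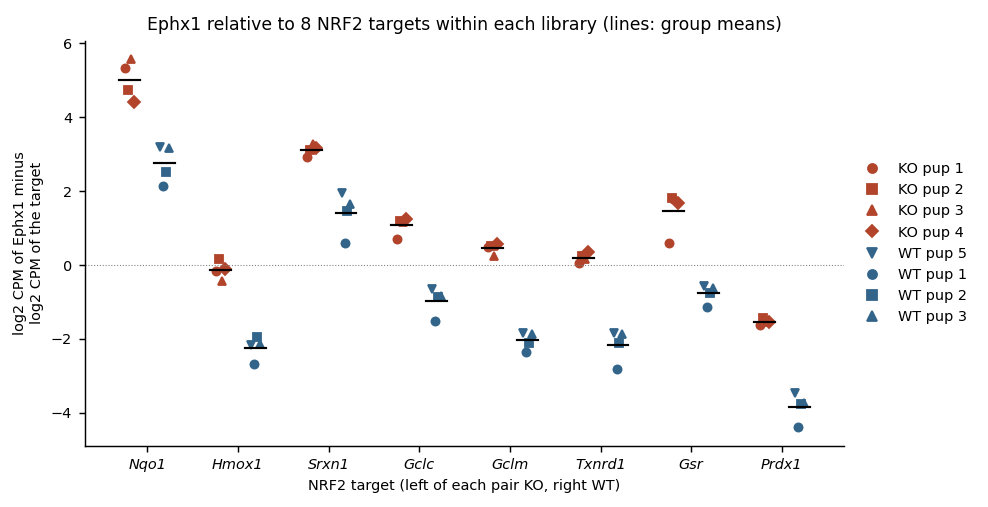
Log2 CPM of Ephx1 minus log2 CPM of each of 8 NRF2 targets (y axis) in each library, KO to the left of WT for each target, with lines at the group means. The KO points lie above the WT points for all 8 targets, by 1.70 (Srxn1) to 2.50 (Gclm) on average.

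Of the 5 glutathione peroxidases, which reduce peroxides at the expense of glutathione, 0 passed. Gpx1, the major cytosolic form, measured 183, 197, 193 and 197 CPM in KO, against 163, 189, 164 and 173 CPM in WT. WT pup 1 exceeded the lowest KO value, and the log2 fold change was 0.16 (SE 0.07, edgeR adjusted p = 0.432). Gpx4 stood at 0.01, and Gpx7 and Gpx8, which act in the endoplasmic reticulum, both stood at -0.06 on the log2 fold scale. Gpx3, the secreted plasma form, varied most among the peroxidases, with 13.0, 18.7, 36.8 and 24.4 CPM in KO, against 33.7, 14.4, 18.9 and 19.1 CPM in WT. Its highest KO value was in KO pup 3, where microglial markers were highest, and its highest WT value in WT pup 5, where choroid plexus and ependymal markers were highest at 1847 CPM. The part of these cells in the Gpx3 values was not tested.

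The 11 glutathione transferases, which join glutathione to electrophiles, had log2 fold changes of -0.07 (Gstt2) to 0.38 (Gsto1), with 9 above 0 and 0 called. Gstm5, a class mu transferase, measured 109.9, 101, 103 and 101 CPM in KO, against 92.4, 89.4, 81.6 and 94.8 CPM in WT. All KO values lay above all WT values, and the means were 104 ± 4.29 CPM in KO, beside 89.5 ± 5.73 CPM in WT (SD, n = 4 each). For this gene the log2 fold change of 0.21 (SE 0.07, 95% interval 0.05 to 0.37) did not pass (edgeR adjusted p = 0.31). Gstm1, the transferase with the highest level per length, averaged 185 ± 14.7 CPM in KO, beside 159 ± 18.6 CPM in WT (SD, n = 4 each). Gstm1 had a log2 fold change of 0.22 (edgeR adjusted p = 0.41). Gsta4, which acts on the lipid peroxidation product 4-hydroxynonenal, measured 88.4 to 140.1 CPM in KO and 64.8 to 125 CPM in WT. Its log2 fold change of 0.24 became 0.73 with a cage term by the titles and -0.23 with one by the file names. Mgst3, a microsomal form, was highest in KO pup 1 at 34.4 CPM, against 18.3 to 19.7 CPM in the other KO pups and 15.05 to 23.9 CPM in WT, and its log2 fold change of 0.29 became 0.03 without that pup. Log2 fold changes were 0.01 for Gstm2, 0.10 for Gstp1, 0.16 for Gstz1, which also acts in tyrosine breakdown, and -0.02 for the microsomal Mgst1. Gstt1 had a count of 0 in KO pup 1, which allows up to 0.144 CPM, and reached 1.27 CPM in KO and 1.06 CPM in WT. The class mu and class pi genes have close copies whose reads the counting could have split or dropped, so the values of Gstm1, Gstm2, Gstm5 and Gstp1 are uncertain to that extent.

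Catalase was the single member with every KO pup below every WT pup. Cat, the peroxisomal enzyme that splits hydrogen peroxide (ENSMUSG00000027187, GRCm38 chromosome 2, 103453849 to 103485160, minus strand), measured 284, 288, 287 and 290.3 CPM in KO, against 352, 316, 320.0 and 345 CPM in WT. The KO pups lay close together, and the WT pups were spread more widely. Means were 287 ± 2.69 CPM in KO, beside 333 ± 18.1 CPM in WT (SD, n = 4 each). Its log2 fold change of -0.21 (SE 0.06, 95% interval -0.36 to -0.07) did not pass in edgeR (adjusted p = 0.235) and passed in DESeq2 (adjusted p = 0.0474), with adjusted p values of 0.0474 to 0.845 over the alternatives. Cat was highest in WT pup 5, where the 6 red cell markers, all detected, were also highest, summing to 569 to 1001 CPM in KO and 522 to 1630 CPM in WT. Of these markers 5 were tested, and all 5 had log2 fold changes below 0, with a median of -0.42 and 0 called. Of all tested genes, 50.3% had a value above 0. The part of red cells in the Cat values was not tested.

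The superoxide dismutases, which turn superoxide into hydrogen peroxide, did not pass. Sod1 (cytosolic) averaged 265 ± 14.4 CPM in KO, beside 242 ± 17.8 CPM in WT (SD, n = 4 each), and Sod2 (mitochondrial) had a log2 fold change of 0.08. Sod3, the extracellular form, measured 33.7, 34.9, 31.3 and 43.9 CPM in KO, against 45.5, 25.7, 8.72 and 56.6 CPM in WT. The spread among WT pups covered the whole KO range, and the value was lowest in WT pup 2, where the 8 mural cell markers, all detected, were also lowest at 462 CPM. In the other libraries these markers summed to 1711 to 2591 CPM in KO and 1338 to 2589 CPM in WT, and their part in the Sod3 values was not tested.

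**Figure D5:**
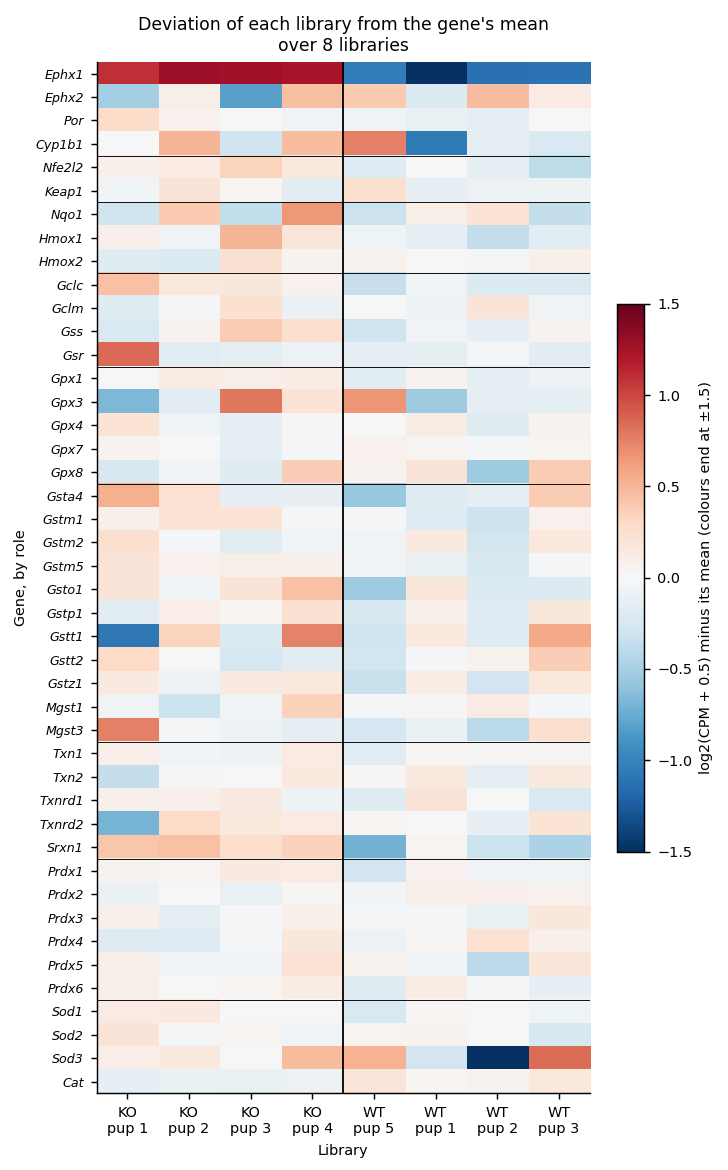
Heat map of log2(CPM + 0.5) minus the mean of the gene over the 8 libraries, with the 44 genes down the page by role and the libraries across it, KO left of WT, where colours end at 1.5 above or below the mean. Ephx1 is high in all 4 KO pups and low in all 4 WT pups, Gsr stands out in KO pup 1 and Sod3 in WT pup 2.

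Other genes of these pathways were read from the same fit. Of 24 further NRF2 targets, 23 were tested and 0 were called, with a median log2 fold change of 0.10. Me1, the NADPH-making malic enzyme, had the smallest p among them, with 13.1, 7.50, 7.03 and 6.76 CPM in KO, against 5.16, 3.27, 4.83 and 3.69 CPM in WT. Its groups did not overlap, KO pup 1 was highest, and the log2 fold change of 1.02 (SE 0.27) passed in DESeq2 (adjusted p = 0.0256) but not in edgeR (adjusted p = 0.168). Of the 23 tested, Me1 alone had every KO pup above every WT pup (4.35%, beside 3.77% of all tested genes), and 0 had every KO pup below. Of 7 NRF2 partners and brakes, 0 were called. Bach2, a repressor related to the NRF2 competitor BACH1, measured 16.1, 14.2, 19.5 and 16.3 CPM in KO, against 25.3, 20.3, 29.1 and 24.8 CPM in WT. All KO values lay below all WT values, and its log2 fold change of -0.59 (SE 0.14) had an adjusted p of 0.132 in edgeR and of 0.0144 in DESeq2. Bach2 was the 1 gene of these 7 with every KO pup below every WT pup (14.3%, beside 3.43% of all tested genes).

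Of 20 other thiol and redox genes, 1 was called higher and 0 lower. Sesn2, a stress-induced sestrin that restrains mTORC1 and aids peroxide defence, measured 27.1, 41.2, 33.0 and 33.8 CPM in KO, against 20.2, 20.4, 17.7 and 14.6 CPM in WT. Its groups did not overlap, and the log2 fold change was 0.89 (SE 0.15, edgeR adjusted p = 0.0318). In this list every KO pup lay above every WT pup for 2 genes (10%, beside 3.77% of all tested genes). For 1 gene every KO pup lay below (5%, beside 3.43%). The call was kept in 8 of the 18 alternatives with more than 1 WT pup, while the log2 fold change stayed between 0.74 and 1.21. With a cage term it was 0.74 by the titles (edgeR adjusted p = 0.543) and 1.21 by the file names (edgeR adjusted p = 0.228), and with the pup number as a block it was 0.94 (edgeR adjusted p = 0.395). Leaving out KO pup 1 kept the call (0.98, edgeR adjusted p = 0.0132). Leaving out any other single pup lost it at log2 fold changes of 0.77 to 0.95, with edgeR adjusted p values of 0.0577 (without WT pup 1) to 0.108 (without KO pup 2). In the 5 pups of the KO cage the value was 0.74.

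The lists of 12 genes for glutathione degradation and carriage, 5 superoxide sources and 21 of 25 other xenobiotic and epoxide genes that were tested held 0 called genes, with medians of 0.10, -0.01 and 0.15 on the log2 fold scale. The gene with the smallest p was Cndp2, a dipeptidase of glutathione breakdown, in the first list (0.18, edgeR adjusted p = 0.476). In the second it was Nos3, the endothelial nitric oxide synthase, with 592, 626, 578 and 473 CPM in KO, against 744, 772, 699 and 630.0 CPM in WT. Every KO pup lay below every WT pup, and its log2 fold change of -0.33 had an adjusted p of 0.229 in edgeR and of 0.0460 in DESeq2. Nos3 was the 1 gene of these 5 with every KO pup below (20%, beside 3.43% of all tested genes). In the third it was Aldh2, the mitochondrial aldehyde dehydrogenase, which averaged 98.8 ± 6.77 CPM in KO, beside 76.7 ± 13.4 CPM in WT (SD, n = 4 each), with a log2 fold change of 0.37 (edgeR adjusted p = 0.251).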

How the data were processed

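The authors deposited 1 table per library of whole-number read counts per gene, not normalized, as the file headers and the values show. The submitters' processing notes name STAR, featureCounts and GRCm38. No version, annotation release, strand setting or handling of multi-mapped reads is given, so opposite-strand overlaps and close copies are uncertain. Per the labels' protocols, stranded poly(A) libraries were read as single-end reads of 100 bp.

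Symbols and coordinates came from GENCODE M21 (GRCm38), which named 25587 of 25700 identifiers. The other 113 took 0.0445% of the counts. Genes were kept by filterByExpr (minimum count 10, minimum total 15), which left 14154, and libraries were scaled by TMM (factors 0.978 to 1.026). The edgeR 4.0.16 quasi-likelihood test (R 4.3.3) had genotype as its term, with Benjamini-Hochberg adjustment over all tested genes. Alternatives used DESeq2 1.42.0 and limma-voom (limma 3.58.1), other scalings and filters, cage terms, a replicate block and fewer libraries. Log2 CPM for the ratios used a prior count of 2. A count of 0 allows up to 3 counts, and this limit covers counting error only. The smallest chi-square per gene between 2 libraries was 16.3, so no pair of libraries held the same counts. In counts simulated for KO against WT over 13920 genes, edgeR called 94 of 100 genes changed by 2-fold, 66 of 100 changed by 1.5-fold and 14 of 13720 unchanged ones. The changed genes were drawn from those with an average log2 CPM above 3. The shares for changed genes thus do not cover members of lower level, such as Nqo1, Ephx2, Cyp1b1 and Gstt1. Each gene was simulated on its own, with no effect shared by a pup, a cage or a cell mixture. The shares also depend on how many genes were changed, so they need not hold for the real libraries.

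The members and lists were chosen with earlier results of these data known, and Ephx1 was known from them to differ between KO and WT. Values in every library are given for Ephx1, Nfe2l2, Keap1, the 8 NRF2 targets, members called by any of the 3 tools, members whose groups do not overlap, and the member with the smallest p in each role. Of the other pathway genes, those called and the one with the smallest p per list are named. Gpx3, Sod3, Gsta4, Mgst3 and Gstt1 were singled out after their values were seen.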

Additional observations from a re-analysis of the deposited data

Results flagged for a closer look

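Within a group of 4 pups, 1 pup lay far from the other 3 (past Dixon's 95% critical value for 4 samples) for 8 of 88 groups examined, and chance flags about 1 in 20 groups. Among the KO pups, Gsr was highest in KO pup 1 at 72.9 CPM (36.0 to 38.1 CPM in the others), Mgst3 was highest in KO pup 1 at 34.4 CPM (18.3 to 19.7 CPM), and Gstz1 was lowest in KO pup 2 at 15.6 CPM (18.1 to 18.5 CPM).

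Among the WT pups, Ephx1 was lowest in WT pup 1 at 16.6 CPM (23.5 to 24.8 CPM in the others), and its log2 fold change without that pup was 2.34. Keap1 was highest in WT pup 5 at 61.7 CPM (48.0 to 49.4 CPM), and Gsr was highest in WT pup 2 at 39.8 CPM (36.3 to 36.8 CPM). Txn1 was lowest in WT pup 5 at 100.03 CPM (113 to 116 CPM), as was Prdx2 at 149 CPM (161 to 163 CPM). WT pup 5 thus held 3 of the 8 values and KO pup 1 held 2.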

How the results depend on the processing

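Over the 19 alternatives the log2 fold change of Ephx1 was 2.29 to 2.52, and 1 of them has a single WT pup and takes its spread from the KO pups. Ephx1 stayed called in the 18 with more than 1 WT pup (adjusted p 7.56e-76 to 0.00492 over edgeR, DESeq2 and limma-voom). Its ratio to each of the 8 targets kept its direction in 13 alternatives. The exact permutation p of 0.0286 is the smallest possible for 4 against 4 and for 4 against 3 pups, so it says nothing of stability. In the 5 pups of the KO cage by the titles, which leaves 1 WT pup and no such test, the log2 difference of the ratio moved to 1.16 for Srxn1, 2.30 for Gclm and 1.91 for Prdx1. Members called higher numbered 4, and members called lower 1, with DESeq2, and the other alternatives with more than 1 WT pup gave the 1 and 0 of edgeR. Among the 43 members not called, 88 of 816 values changed sign, in 25 members, each with an adjusted p of at least 0.605 and none with a log2 fold change beyond 0.29 in size over all libraries. The values of 6 members lay outside their 95% intervals with a cage term or within the KO cage (Nfe2l2, Keap1, Srxn1, Gsta4, Gsto1 and Prdx1). Ephx1 had a level per length of 203 in KO with the longest transcript, and 37.3 in WT.

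Over all genes, edgeR called 39 higher and 16 lower. DESeq2 called 158 and 193. A cage term left 10 and 6 (titles) or 10 and 0 (file names, with 314 lower at an unadjusted p under 0.05). The 5 pups of the KO cage by the titles include 1 WT pup, so no count of calls is given for them. Without 1 pup in turn, 25 to 60 genes were higher and 6 to 27 lower. No filter gave 38 lower, and leaving out KO pup 1 and WT pup 2 gave 26 lower. The cause of these shifts was not tested. In both cage fits the genotype difference rests on 1 WT pup.

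With the pup number as a replicate block, Ephx1 had a log2 fold change of 2.52 (edgeR adjusted p = 0.00187), and over all genes 11 were called higher and 0 lower, with 524 lower at an unadjusted p under 0.05. The deviations of same-numbered pups (by the titles) correlated at -0.07 to 0.03, and those of differently numbered pups at -0.24 to 0.26. These few pairs gave no sign of pairing by number, and they do not show what else the pups share. Slc2a1 was lower in KO in all 19 alternatives (-1.31 to -0.89). Among those with more than 1 WT pup it lost its call with the file-name cage term (-0.89, edgeR adjusted p = 0.331) and the block (-0.91, edgeR adjusted p = 0.0931), and kept it in the others. The alternatives for Slc2a1, Sesn2, Me1, Bach2, Cndp2, Nos3 and Aldh2 were added after seeing the data. Low counts limit Gstt1, Ephx2, Cyp1b1 and Nqo1, and single pups limit Gsr and Mgst3.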
